A study of Rattus norvegicus with 8 samples.

Results

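miR-204 and miR-211 were followed as a family of 4 rows in a table of 620 known rat miRNAs. The members were chosen by name alone, as every row called miR-204 or miR-211 with any arm suffix, and these were rno-miR-204, rno-miR-204*, rno-miR-211 and rno-miR-211*, where the asterisk marks the opposite arm of the same hairpin. The small RNA came from kidneys of male Big Blue transgenic Fisher 344 rats, which carry a reporter transgene for mutation assays and were 6 weeks old at the start. In the AA group, 4 rats were gavaged with aristolochic acid (AA), a plant nephrotoxin and carcinogen, given as the sodium salt (10.0 mg/kg, 5 doses weekly over 12 weeks), and the compound was 40% AAI and 56% AAII. The 4 control rats (CTL) received saline on the same schedule, and the 8 rats gave the 8 libraries named CTL1 to CTL4 and AA1 to AA4. Libraries held 13412373 to 15616670 reads on known miRNAs. The tissue field of the sample labels reads liver, while the other labels and the methods name the kidney. rno-miR-122, which defines hepatocytes, was between 0.696 and 53.0 CPM in 7 libraries and at 523 CPM in AA2. CPM are counts per 1000000 reads after scaling of the libraries by TMM normalization. The 7 miRNAs of the kidney tubule list summed to 156773 to 280682 CPM over all 8 libraries. Their level in liver was not measured here, so that this sum does not tell the tissues apart.

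A miRNA acts by pairing its seed, the bases near its 5′ end, with sites in target mRNAs, which lowers their stability and translation, so that miRNAs with the same seed can share targets. miR-204 is known as a miRNA of epithelia, in the retinal pigment epithelium, the choroid plexus and the kidney tubule, where it has been tied to the maintenance of the epithelial state. miR-211 is its close relative and is best known from melanocytes and the retinal pigment epithelium. Both are described as intronic miRNAs of melastatin-type cation channel genes, miR-204 of Trpm3 and miR-211 of Trpm1, and are usually made together with the host transcript.

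The mature sequences show how close the main arms are and how different the opposite arms are. All 4 members were matched by name to RefSeq (assembly GRCr8), with rno-miR-204 and rno-miR-211 taken as the 5p arms and the asterisked rows as the 3p arms. The seed (bases 2 to 8) is in capitals.
rno-miR-204: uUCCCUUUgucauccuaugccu
rno-miR-211: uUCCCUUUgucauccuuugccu
rno-miR-204*: gCUGGGAAggcaaagggacguu
rno-miR-211*: gGCAAGGAcagcaaaggggg

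The main arms are 22 nt long and have the same base at 21 of 22 positions. The only substitution is A17U, counted from 1 at the 5′ end with the base of rno-miR-204 first, and it lies outside the seed. Among 724 mature rat miRNAs of RefSeq, these 2 alone carry the seed UCCCUUU, and no other mature sequence of the same length lies within 1 substitution of either. The opposite arms have different seeds, each of which belongs to 1 mature miRNA in RefSeq, and in the best ungapped alignment they have the same base at 13 of 19 positions. A single base thus tells reads of the main arms apart. How many mismatches were allowed when reads were counted on known miRNAs is not given in the sources used here.

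Both hairpins lie on the plus strand of chromosome 1 in GRCr8, Mir204 at chr1:229743461-229743570 and Mir211 at chr1:127189328-127189433, with both mature arms in capitals below.
Mir204: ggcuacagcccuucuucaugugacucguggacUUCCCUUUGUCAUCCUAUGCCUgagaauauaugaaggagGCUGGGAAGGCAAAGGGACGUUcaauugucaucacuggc
Mir211: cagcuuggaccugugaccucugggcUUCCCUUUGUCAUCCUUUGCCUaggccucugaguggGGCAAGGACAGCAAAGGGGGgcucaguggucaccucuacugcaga

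In the RefSeq gene table, Mir204 lies within Trpm3 and Mir211 within Trpm1, both on the strand of the host gene, and no other miRNA gene lies within either host. The table holds no exons, so that exon and intron were not told apart here. The mature rno-miR-204 spans chr1:229743493-229743514 and rno-miR-211 spans chr1:127189353-127189374.

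The members differed widely in level. rno-miR-204 had 203 to 481 reads in a library, rno-miR-204* had 4 to 12, rno-miR-211 had 0 to 4 and rno-miR-211* had 1 read in a single library, CTL4. Over the 8 libraries this made 2752, 57, 12 and 1 reads. rno-miR-204 exceeded rno-miR-204* in 8 of 8 libraries, by 48.3 times in summed reads. rno-miR-204* exceeded rno-miR-211 in 8 of 8 libraries as well, by 4.75 times in summed reads, although the ranges over libraries touched, from 0.275 CPM upwards for the former and up to 0.300 CPM for the latter. rno-miR-211 exceeded rno-miR-211* in 6 libraries, equalled it in 1 and lay below it in 1, so that the last pair in this order was not separated at this depth. The family thus consisted almost wholly of reads counted on rno-miR-204. Only rno-miR-204 reached the minimum of 10 reads in at least 4 libraries that was set for testing.

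Although miR-204 is listed among the miRNAs of kidney epithelium, its level in the control kidneys was below that of all 12 miRNAs of the kidney tubule and epithelial lists, of which rno-miR-141 was the lowest at 469 CPM. rno-miR-204 was at 30.3 ± 7.0 CPM (SD, n = 4) in the control group. rno-miR-192, a miRNA of proximal tubule and gut epithelium, was at 38408 ± 24835 CPM, with CTL4 the highest, rno-miR-30a at 125631 ± 12923 CPM and rno-miR-194 at 2202 ± 274 CPM (SD, n = 4 each, control group). rno-miR-215, a relative of rno-miR-192 that is in neither list and was picked after its values were seen, was lower than rno-miR-204, at 15.3 ± 4.54 CPM (SD, n = 4, control group). By reads, rno-miR-204 ranked between 149 and 165 among the 620 miRNAs of a control library. Reads per miRNA also depend on how well each sequence is ligated and copied, so that these levels are levels in the libraries.

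After AA treatment, rno-miR-204 was lower in every rat than in any control rat once the libraries were scaled. It was at 30.8, 29.2, 22.1 and 39.2 CPM in CTL1 to CTL4 and at 15.7, 19.5, 14.9 and 19.4 CPM in AA1 to AA4. The highest AA value, in AA2, lay just under the lowest control value, in CTL3, and CTL4 was the highest of all. The mean fell from 30.3 ± 7.0 to 17.4 ± 2.43 CPM (SD, n = 4 each), so that the control mean was 1.75 times the AA mean. This is a log2 fold change of -0.80 with a standard error of 0.22 (adjusted p = 0.034, the quasi-likelihood test of edgeR, over 367 tested miRNAs). The background to this call is that 16.3% of the tested miRNAs were called in either direction and 5.99% were called lower, while 9.81% had all 4 AA libraries under all 4 control libraries. By size of the fall, 29 of the 367 tested miRNAs had a lower log2 fold change than rno-miR-204. In whole kidney, fewer cells that make a miRNA and less of it per cell cannot be told apart.

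**Figure D1:**
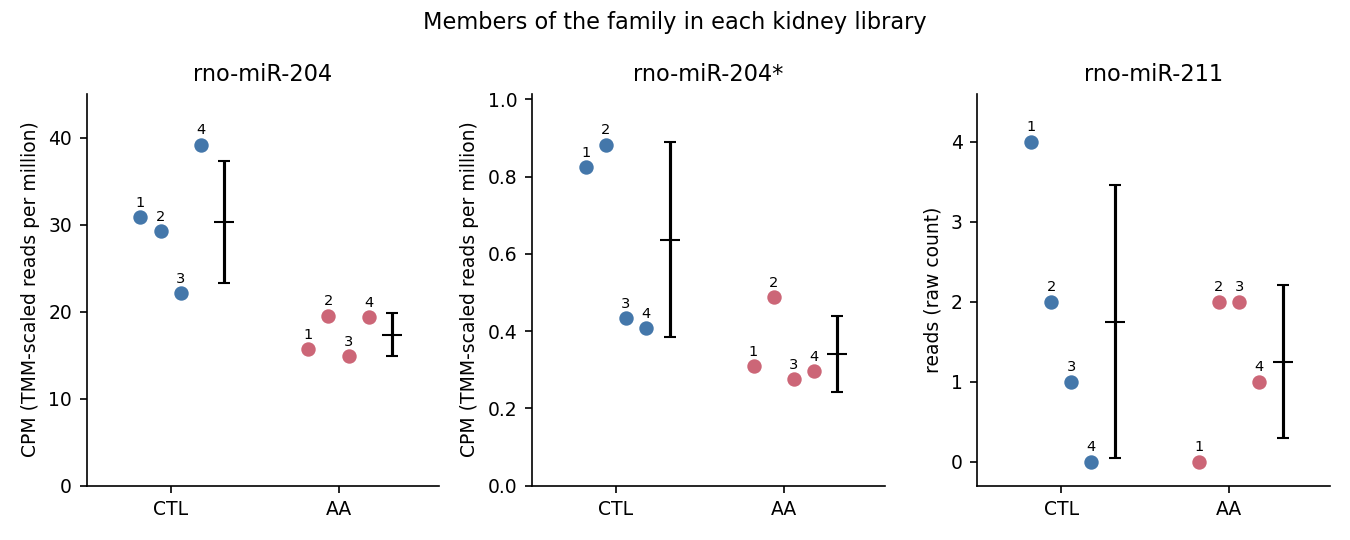
Level of 3 members in each library, with rno-miR-204 and rno-miR-204* in CPM and rno-miR-211 in raw reads, on linear axes. Points are single rats with the library number above, CTL in blue and AA in red, and the black marks give the mean and SD of 4 libraries. All AA points of rno-miR-204 lie between 14.9 and 19.5 CPM and all control points between 22.1 and 39.2 CPM, whereas the groups overlap for the other 2 members.

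The call on rno-miR-204 lay close to the threshold. Without scaling beyond total counts, the log2 fold change was -0.57 and the adjusted p was 0.10 from edgeR. On that scale the groups overlapped by 1 pair of libraries, AA2 at 23.7 and CTL3 at 23.0 reads per 1000000 counted reads. With no filter on reads the adjusted p from edgeR was 0.051. When CTL1, CTL2, CTL4, AA1 or AA3 was left out, the adjusted p was between 0.056 and 0.081 from edgeR, each time with 7 libraries in the fit. The direction did not change in any of these 16 alternative fits, in which the log2 fold change ranged from -1.02 to -0.57. The scaling shifts all miRNAs together, and the median log2 fold change of the tested miRNAs was 0.06 with TMM normalization and 0.27 with total counts. Relative to that median, the log2 fold change of rno-miR-204 was -0.86 with TMM normalization and -0.85 with total counts. These values are close by construction, since subtracting the median removes the common shift, and they do not bear on the call.

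The place of rno-miR-204 in the order of abundance needs no scaling, although a rank also falls when other miRNAs rise past it. By reads rno-miR-204 held ranks 156, 158, 165 and 149 in CTL1 to CTL4 and ranks 199, 182, 195 and 190 in AA1 to AA4. The 2 sets of ranks did not overlap, with means of 157 ± 6.58 and 191.5 ± 7.33 (SD, n = 4 each; exact permutation test, two-sided, p = 0.0286, the smallest that 4 against 4 rats allow). This comparison was chosen after the values had been seen.

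**Figure D2:**
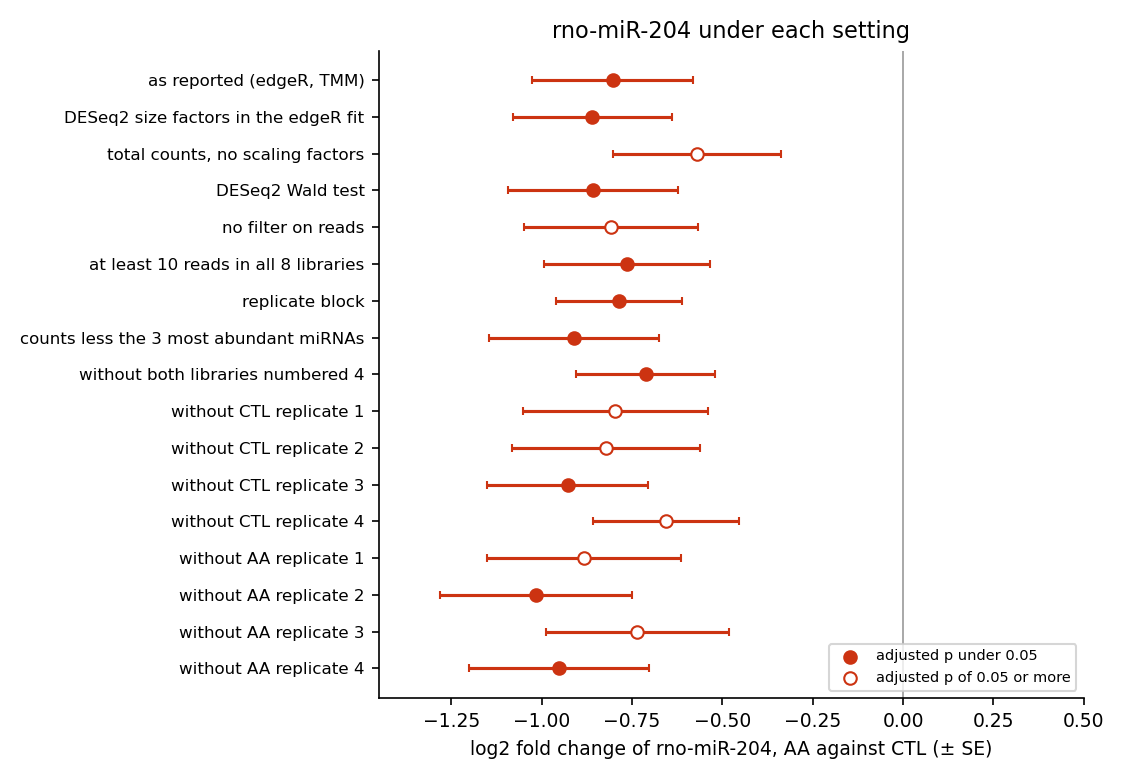
Log2 fold change of rno-miR-204 between AA and CTL (x axis) under the reported setting and 16 alternatives (y axis), with bars of 1 standard error. Filled points have an adjusted p under 0.05 and open points do not. Every point lies below 0, from -1.02 to -0.57, and 9 of the 16 alternatives are filled.

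The spread of rno-miR-204 between rats was larger than its counting error. The coefficient of variation over rats was 23.1% among controls and 14% among AA rats, against 4.93% and 6.01% for the counting of that many reads alone. CTL4 and AA4 were also left out together, because earlier results of these data had shown the libraries numbered 4 deviating alike from their group means (r = 0.35 over the tested miRNAs). Without both, rno-miR-204 had a log2 fold change of -0.71 (adjusted p = 0.045 from edgeR). rno-miR-122 was highest of its group in CTL1 and AA2. Without CTL1 the log2 fold change of rno-miR-204 was -0.80 (adjusted p = 0.080 from edgeR) and without AA2 it was -1.02 (adjusted p = 0.035 from edgeR). The call was also lost without CTL2, CTL4, AA1 or AA3, and a link to rno-miR-122 was not tested.

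rno-miR-204*, the 3p arm of the same hairpin, was read too rarely for the test across miRNAs. It had 11, 12, 7 and 5 reads in CTL1 to CTL4 and 4, 9, 4 and 5 reads in AA1 to AA4. CTL1 and CTL2 were the highest, while CTL4 lay among the AA libraries and AA2 above 2 of the controls, so that the groups overlapped. The means were 0.637 ± 0.251 and 0.342 ± 0.0984 CPM (SD, n = 4 each, control and AA). In summed reads per scaled depth, 22 reads in the AA group against 35 in the control group gave a ratio of 0.554 (95% exact Poisson interval 0.310 to 0.971), which covers counting error only. In the edgeR fit without a filter on reads, which takes in the spread between rats, its log2 fold change of -0.86 (standard error 0.46) was not called (adjusted p = 0.27). The spread over rats, 39.5% and 28.7%, was near or under the counting error of 33.8% and 42.6% (control and AA).

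Within the hairpin, the balance of the arms did not differ detectably between the groups. rno-miR-204* made up 2.08% of the reads of both arms in the control group (35 of 1681 reads, 95% Wilson interval 1.5% to 2.88%) and 1.95% in the AA group (22 of 1128 reads, 1.29% to 2.94%). The log2 ratio of rno-miR-204* to rno-miR-204 was -5.54 ± 0.65 in controls and -5.56 ± 0.27 after AA (SD, n = 4 each). The difference was -0.01, with an interval from -0.90 to 1.20 (exact permutation test, two-sided, p = 0.943, adjusted p = 1.00 over 2 hairpins).

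rno-miR-211 was at the edge of detection. Its reads were 4, 2, 1 and 0 in CTL1 to CTL4 and 0, 2, 2 and 1 in AA1 to AA4, and the groups overlapped fully. The 2 libraries with no read, CTL4 and AA1, allow a level of up to 0.244 and 0.232 CPM, taken as 3 reads. The ratio of summed reads per scaled depth, AA over control, was 0.629 (5 reads in the AA group against 7 in the control group). Its 95% exact Poisson interval ran from 0.158 to 2.30, so that a change of rno-miR-211 was not detectable. This ratio turned on CTL1, without which its log2 value went from -0.67 to 0.16. rno-miR-211* had 0 reads in 7 libraries, which allows up to 0.163 to 0.232 CPM in each of them. At 20 nt it is the shortest member, and the libraries were cut from a gel by size, so that its recovery may differ from that of the others, which was not tested.

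rno-miR-211 was a small fraction of the reads with the shared seed in both groups, and no difference in that fraction was detectable. It accounted for 0.423% of them in the control group (7 of 1653 reads, 95% Wilson interval 0.205% to 0.872%) and 0.450% in the AA group (5 of 1111 reads, 0.192% to 1.05%). The log2 ratio of rno-miR-211 to rno-miR-204 was -7.91 ± 1.45 in controls and -7.51 ± 0.94 after AA (SD, n = 4 each). The difference of 0.40 was within the spread between rats, with an interval from -2.15 to 3.47 (exact permutation test, two-sided, p = 0.629). With 12 reads in all, and a single base between the main arms, whether these reads came from Mir211 was not tested. The 3p arm, which shares no seed with any other rat miRNA in RefSeq, added 1 read.

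Whether rno-miR-204 moved apart from other miRNAs of kidney epithelium was asked with 10 ratios taken within each library, which need no scaling. In all 10, the log2 ratio of rno-miR-204 to the other miRNA had a lower mean in the AA group, with differences from -1.20 to -0.01. The ratios share the reads of rno-miR-204, so that they are not 10 independent results. None was called after adjustment over the 10 ratios (exact permutation tests, two-sided, adjusted p between 0.214 and 1.00), and 1 had an unadjusted p under 0.05. With 4 against 4 libraries this test gives no p under 0.0286, so that 1 ratio alone could not pass the adjustment, however far apart the groups lay. The largest difference was against rno-miR-200c, known to repress transcription factors of epithelial-mesenchymal transition. rno-miR-204 had 4.64%, 4.34%, 2.85% and 8.67% as many reads as rno-miR-200c in CTL1 to CTL4 and 2.05%, 1.72%, 1.80% and 2.77% in AA1 to AA4. These values did not overlap, with CTL3 just above AA4. The difference of the log2 ratios was -1.20 with an interval from -2.33 to -0.04 (exact permutation test, p = 0.0286, adjusted p = 0.214).

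The smallest differences were against rno-miR-194 and rno-miR-192, which are made from shared clusters. Against rno-miR-194 the log2 ratio was -6.20 ± 0.19 in controls and -6.21 ± 0.63 after AA (SD, n = 4 each), a difference of -0.01 with an interval from -0.87 to 0.98 (exact permutation test, p = 1.00). rno-miR-204 had 1.27%, 1.38%, 1.19% and 1.62% as many reads as rno-miR-194 in the controls CTL1 to CTL4. In AA1 to AA4 the figures were 0.885%, 1.53%, 1.03% and 2.36%, with AA1 and AA3 below all controls and AA4 above them. rno-miR-194 itself was called lower in the AA group, at 2202 ± 274 and 1329 ± 396 CPM (SD, n = 4 each, control and AA). Its log2 fold change of -0.73 was just past the threshold (adjusted p = 0.0499 from edgeR). Against rno-miR-192 the difference was -0.14, with an interval from -1.0 to 1.38 (exact permutation test, p = 0.714, adjusted p = 0.794).

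**Figure D3:**
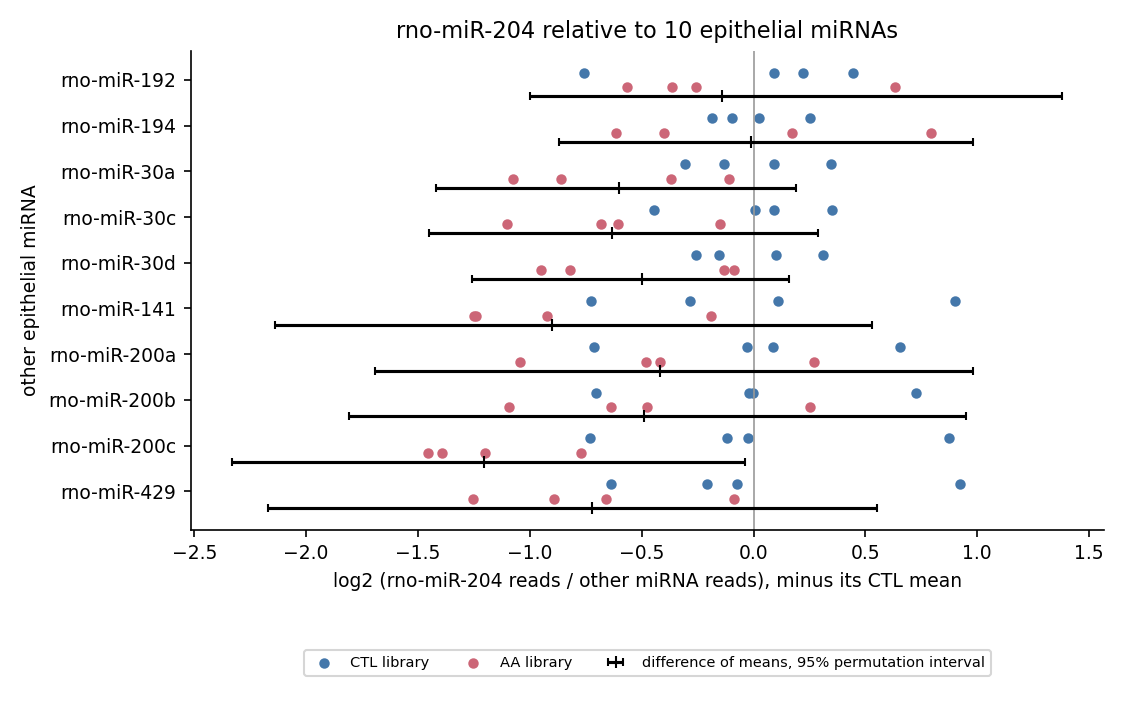
Log2 ratio of rno-miR-204 reads to the reads of each of 10 epithelial miRNAs, less the control mean of that ratio (x axis), for 4 CTL libraries in blue and 4 AA libraries in red. Black bars give the difference of the group means with its 95% permutation interval. The bar of rno-miR-200c, from -2.33 to -0.04, is the only 1 of the 10 that does not reach 0.

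The lists of other kidney miRNAs place the fall of rno-miR-204 among its neighbours. Of 7 kidney tubule miRNAs, 1 was called lower (rno-miR-194), 0 were called higher and 6 were not called, with a median log2 fold change of -0.28 against 0.06 for the 367 tested. A single member called lower out of 7 is to be read against the 5.99% of tested miRNAs called lower and the 16.3% called in either direction. The members of this list other than rno-miR-192 and rno-miR-194 belong to the miR-30 family, which is abundant in the nephron, and their log2 fold changes lay between -0.38 and -0.02. Of 5 epithelial miRNAs of the miR-200 family, none was called by edgeR at an adjusted p under 0.05, and the median log2 fold change was -0.07. rno-miR-200c was at 642 ± 137 CPM in controls and 856 ± 193 CPM after AA (SD, n = 4 each), with a log2 fold change of 0.42 (adjusted p = 0.21 from edgeR).

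Of 7 tested miRNAs known from eye and brain, where the family is also expressed, none was called. Among all 367 tested miRNAs 16.3% were called in either direction, so that lists this small may hold no called member. rno-miR-124, a neuronal miRNA, was under the read filter, at 0.0982 ± 0.104 CPM in controls and 0.941 ± 0.579 CPM after AA (SD, n = 4 each). Its control mean lay below the level of 3 reads in a library. The 3 collagen-repressing members of the miR-29 family were not called either, with a median log2 fold change of 0.04.

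Other lists held members that were called higher in the AA group, where 10.4% of the 367 tested miRNAs were called higher, and these lists were chosen with earlier results of these data known. Of 5 fibrosis and injury miRNAs, 3 were called higher (rno-miR-21, rno-miR-21* and rno-miR-199a-3p), while rno-miR-199a-5p and rno-miR-214 were not called and overlapped between the groups. The summed level of the list, 28648 to 39296 CPM in controls and 71528 to 178968 CPM after AA without overlap, was almost wholly that of rno-miR-21, since the means of the other 4 lay between 22.2 and 514 CPM. Of 6 tested leukocyte miRNAs, 3 were called higher (rno-miR-142-3p, rno-miR-146b and rno-miR-223), while rno-miR-155 was not listed. Another 3 were not called (rno-miR-142-5p, rno-miR-146a and rno-miR-150), although rno-miR-150 was higher in all AA libraries than in all controls. The sums were 2468 to 3557 CPM in controls and 4259 to 8104 CPM after AA, also without overlap. rno-miR-142-3p (means of 954 and 2649 CPM) and rno-miR-146b (383 and 1854 CPM) rose most, while rno-miR-146a did not rise (1435 and 1345 CPM). How often tested miRNAs were higher without overlap was not counted, so that these gaps have no background. The 2 red blood cell miRNAs were not called in either direction, at overlapping sums of 499 to 798 CPM and 158 to 564 CPM. All members of these 3 lists in the table were read in both groups. The part of these cell types in the level of rno-miR-204 was not tested.

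**Figure D4:**
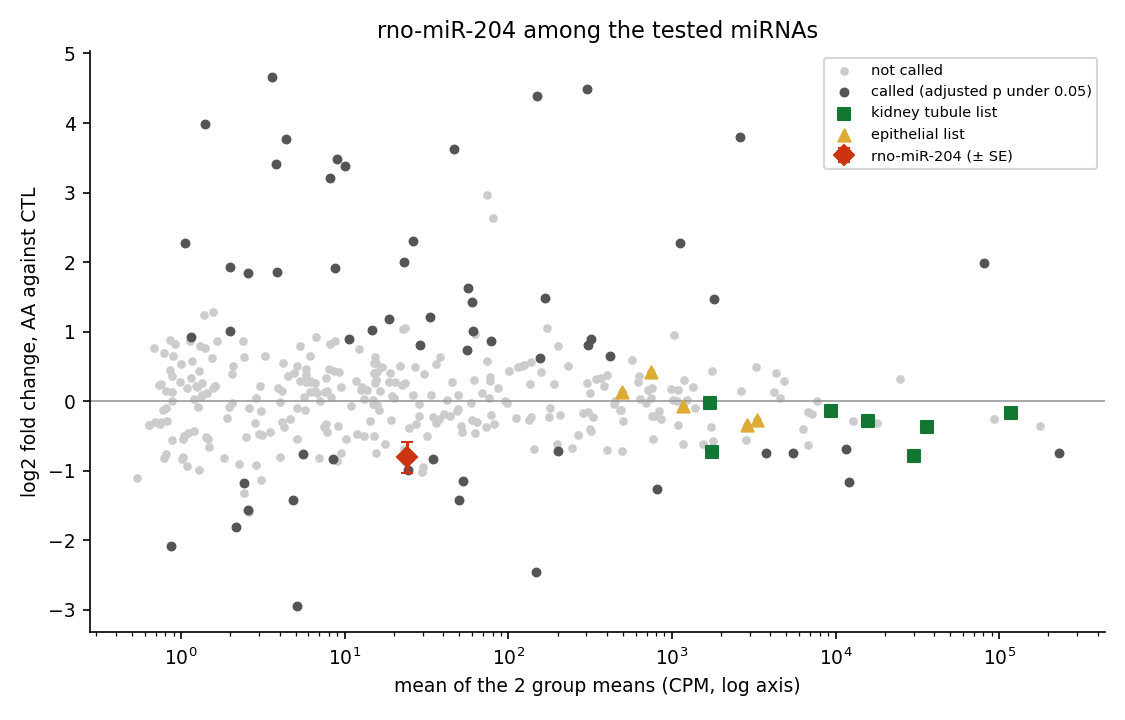
Log2 fold change between AA and CTL (y axis) against mean level in CPM (x axis, log scale) for the 367 tested miRNAs. Called miRNAs are dark grey, the kidney tubule list green squares, the epithelial list yellow triangles, and rno-miR-204 a red diamond with its standard error. rno-miR-204 lies at -0.80, below all 5 epithelial and all 7 tubule miRNAs, of which rno-miR-192 comes nearest at -0.79.

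The miRNAs whose pattern over the 8 libraries was most like that of rno-miR-204 were found by Pearson's r of log2 CPM among 366 tested miRNAs. The highest were rno-miR-3557-3p (r = 0.94), rno-miR-139-5p (r = 0.91), rno-miR-3545-3p (r = 0.89), rno-miR-26b (r = 0.87) and rno-miR-485* (r = 0.87). Among these, rno-miR-3545-3p was called lower, at means of 1142 and 478 CPM (control and AA), and the other 4 were not called. The lowest were rno-miR-19b (r = -0.93), rno-miR-34a*, the opposite arm of the p53-induced miR-34a (r = -0.92), and rno-miR-132 (r = -0.90), and all 3 were called higher in the AA group. These points share their libraries and their scaling factors, and the difference between the groups enters every such r, so that the values are descriptions. The control mean of rno-miR-34a*, 0.152 CPM, lay below the level of 3 reads in a library.

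Likeness within the groups picked out other names. For deviations from the group means over the 8 libraries, the highest r were those of rno-miR-133a (0.91), a muscle miRNA, rno-miR-504 (0.87), rno-miR-150 (0.85), rno-miR-181b-1* (0.84) and rno-miR-324-3p (0.84). The lowest were those of rno-miR-455* (-0.88), rno-miR-99b* (-0.84) and rno-miR-34a* (-0.81). rno-miR-34a* was the only miRNA named by both measures, and its control mean lay below the level of 3 reads in a library.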

How the data were processed

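The authors sequenced small RNA on an Illumina Genome Analyzer II and deposited raw counts, whole numbers of reads for each known rat miRNA, not normalized. Their notes and methods name miRanalyzer, Bowtie, DESeq and miRBase. The genome build is not given in the sources used here. Reads under the length limit were removed before counting, and handling of reads that match several miRNAs is not stated.

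Group and number were taken from sample titles. AA and control libraries were compared with edgeR 4.0.16 in R 4.3.3 (quasi-likelihood test, TMM normalization). Benjamini-Hochberg adjustment covered the 367 miRNAs that reached 10 reads in 4 or more of the 8 libraries, at a threshold of 0.05. This step was tested on simulated data, with changes larger than that of rno-miR-204. The standard error was the log2 fold change over the square root of F. Ratios within a library (0.5 reads added) were compared with two-sided exact permutation tests, with intervals of the shifts not rejected. Alternatives used DESeq2 1.42.0 size factors and Wald test, total counts, other filters, a replicate block, counts without the 3 most abundant miRNAs, and fewer libraries. Within groups, libraries differed by a chi-square of at least 437 per degree of freedom, so none was counted as a duplicate. Wilson and Poisson intervals cover counting error only, since PCR copies are not independent molecules.

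Earlier results of these data were known when the lists were chosen and the family was taken up. The rows of the family were then taken by name alone. The miRNAs named are the members, those of the lists, and the 5 most and 3 least like rno-miR-204 by each measure. rno-miR-215 was added to these after its values were seen.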

Additional observations from a re-analysis of the deposited data

Results flagged for a closer look

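In the AA group, rno-miR-204* was at 0.488 CPM in AA2, with AA1, AA3 and AA4 between 0.275 and 0.309 CPM, so that AA2 stood apart from the rest of its group. The value rests on 9 reads against 4 to 5. Of 32 groups of 4 libraries examined this was the only value to stand apart, and chance alone gives about 1 in 20.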

How the results depend on the processing

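rno-miR-204 kept its direction in every fit but not its call. With total counts its log2 fold change was -0.57, with no filter -0.81, and with an exact permutation test of log2 reads per 1000000 counted reads, chosen after the data were seen, -0.58 (p = 0.0571), none of them past the threshold. The same permutation test on log2 CPM gave -0.79 (p = 0.0286). Leaving out each library gave -1.02 to -0.66, with the call lost in 5 of the 8 fits. With the number of the titles as a replicate block it was -0.79 (adjusted p = 0.017 from edgeR). Same-numbered libraries correlated in their deviations by 0.05, 0.20, 0.15 and 0.35, so the numbers were not taken as pairs. The block gave 78 calls in place of 60.

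With total counts 14 miRNAs were called lower in place of 22, and 79.4% of the calls were higher in place of 63.3%. Leaving out each library gave 36 to 54 calls, of which 11 to 21 were lower, with the lowest counts without CTL1 (38 and 11) and CTL2 (36 and 11).

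For rno-miR-211 the log2 ratio of summed reads ranged from -1.03 to 0.16 with each library left out. It was under the read filter, so DESeq2, the stricter filter, the block and the reduced counts gave no value. Some differences of log2 ratios between the groups changed sign. rno-miR-204* to rno-miR-204 went to 0.0282 with 1 read added and from -0.31 to 0.17 with each library left out. Without both libraries numbered 4, rno-miR-211 to rno-miR-204 went to -0.18 and rno-miR-211* to rno-miR-211, at -0.18 with all libraries, to 0.81. With each library left out they ranged from -0.27 to 0.86 and from -0.78 to 0.80, and rno-miR-204 to rno-miR-192 and to rno-miR-194 from -0.40 to 0.0087 and from -0.28 to 0.19. None of these was past the threshold in any setting, and the causes were not tested. The sign flips between same-numbered libraries cannot give a p under 0.125, nor 3 against 3 libraries a p under 0.1. With all 8 libraries the permutation test gives no p under 0.0286, which for 1 ratio alone cannot pass the adjustment over 2 hairpins or 10 ratios.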
